A study of Mus musculus with 18 samples.

Results

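The genes described here encode receptor chains for the common gamma chain cytokines and for the IL-6 family. The list holds 7 genes, Il2ra, Il2rb, Il2rg, Il7r, Il4ra, Il21r and Il6st, of which 6 were measured among 22180 genes. Each of the 6 had 1 probe set that carries its symbol alone. No probe set carries the symbol Il2rg in the annotation used here, so the common gamma chain itself, whose gene lies on chromosome X, was not analysed here. Il2ra encodes CD25 and Il7r encodes IL7Rα, and both proteins were stained for the sort, so their differences among the sorted fractions check the sort and are no finding. The sort also bears on their differences from LSK cells in each fraction.

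The study measured 18 arrays of sorted mouse cells, 3 in each of 6 groups. Marrow cells infected with an NPM-ALK retrovirus were transplanted into irradiated mice with an Lck-Cre transgene, which drives Cre in early T cells. NPM-ALK is a fusion kinase found in anaplastic large cell lymphoma. The 5 lymphoma groups are the CLP, DN1, DN2, DN3 and DN4 fractions of lymphomas taken out of the thymus of moribund mice, and the series names 3 lymphomas. The control group is LSK cells, the stem and progenitor cells that carry SCA1 and KIT and lack lineage markers, from the bone marrow of healthy wild-type mice aged 18 months. The description fields name NIPA knockout or wild-type mice, and for 12 arrays a dose of 4 Gy, which does not match the titles and genotype fields. The titles were followed. Labels do not say whether the fractions of 1 replicate number come from the same animal, and p-values measure only the spread between these arrays.

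Cytokines of the common gamma chain family, namely IL-2, IL-4, IL-7, IL-9, IL-15 and IL-21, signal through receptors that pair a private chain with the common chain and activate JAK1 and JAK3, which phosphorylate STAT5, STAT6 or STAT3. IL-7 keeps immature thymocytes alive, CD25 marks the DN2 and DN3 stages of the healthy thymus, and IL-4Rα is present on most blood cells. Il6st encodes gp130, the signal chain shared by IL-6, IL-11, LIF and oncostatin M.

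Values are log2 RMA signals, so a difference of 1 is a doubling of signal on the array, and a level of 1 gene is not set against that of another. Olfactory receptor probe sets, largely silent in blood cells, gave a gauge of background, whose 95th percentile lay at 5.36 to 5.71 over the arrays. The fractions carried T cell markers and LSK cells carried stem cell markers. All 8 measured T cell markers lay above this range in every fraction and 5 of 8 in LSK cells, and 0 of 8 stem and progenitor markers did so in any fraction and 8 of 8 in LSK cells. The fraction labelled CLP, the common lymphoid progenitor, averaged 12.53 for Cd3e and had the lowest Il7r mean of the fractions, which goes against that label. Cd44, a sort antigen high in DN1 and DN2, averaged 4.81 in CLP, 6.64 (DN1), 5.95 (DN2), 4.67 (DN3), 4.7 (DN4) and 7.36 in LSK. Arrays of CLP resembled each other least (r of 0.968 to 0.975 over all genes, against 0.982 or more within each other group). Xist, which coats an inactive X, was at most 5.03 on the lymphoma arrays, against 3.55, 10.74 and 10.0 on LSK arrays 1, 2 and 3. Eif2s3y, a gene of the Y chromosome, averaged 8.95 (DN3) to 9.2 (DN1) in the fractions, against 8.42, 7.43 and 4.69 on these LSK arrays. The LSK arrays are thus unlike each other in both RNAs, and the part of sex in the differences from LSK was not tested.

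The promoters of Il4ra, Il21r and Il2ra are shown because these genes had the widest spans among the fractions. Il4ra and Il21r are neighbours on chromosome 7, with no protein-coding gene between them in RefSeq. The sequences are RefSeq's for GRCm38.p6, 250 bases before to 50 after the start of the gene, 5′ to 3′, and promoters were found for 6 of the 7 listed genes (none for Il2rb). They stand at chr7:125552021-125552320 on the plus strand (Il4ra), chr7:125603179-125603478 on the plus strand (Il21r) and chr2:11642542-11642841 on the plus strand (Il2ra). Capitals mark matches to 4 motifs searched on both strands, TTCNNNGAA (STAT), the STAT6 motif, which has 1 more base between TTC and GAA, TGGGAA (RBPJ) and TGTGGT (RUNX).
Il4ra: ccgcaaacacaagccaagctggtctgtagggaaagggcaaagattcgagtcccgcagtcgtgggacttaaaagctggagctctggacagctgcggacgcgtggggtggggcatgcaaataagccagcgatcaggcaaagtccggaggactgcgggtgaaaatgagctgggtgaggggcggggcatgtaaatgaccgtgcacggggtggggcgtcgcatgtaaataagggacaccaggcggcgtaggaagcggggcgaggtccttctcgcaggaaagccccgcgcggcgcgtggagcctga
Il21r: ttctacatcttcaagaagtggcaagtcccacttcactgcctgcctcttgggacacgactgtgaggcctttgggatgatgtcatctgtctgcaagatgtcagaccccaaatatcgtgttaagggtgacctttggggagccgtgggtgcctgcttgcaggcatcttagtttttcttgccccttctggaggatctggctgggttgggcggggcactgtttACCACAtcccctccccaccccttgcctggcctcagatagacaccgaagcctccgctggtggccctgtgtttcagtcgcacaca
Il2ra: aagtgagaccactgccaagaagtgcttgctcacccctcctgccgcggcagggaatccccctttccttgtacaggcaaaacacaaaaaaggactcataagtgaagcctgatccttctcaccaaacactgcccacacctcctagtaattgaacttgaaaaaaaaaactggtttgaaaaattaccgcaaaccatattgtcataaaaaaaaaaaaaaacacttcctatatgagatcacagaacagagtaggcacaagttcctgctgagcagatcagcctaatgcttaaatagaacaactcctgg
The Il21r window held 1 RUNX match, at -33 from the start, and the Il4ra and Il2ra windows held none of the 4 motifs. Among 27025 promoters of this length, TGTGGT occurred in 16.9%, TGGGAA in 25.5%, TTCNNNGAA in 8.5% and the STAT6 motif in 7%. The Il7r window held 1 STAT match, at -142, and 1 RUNX match, at 3, and the Il6st window, 68.3% G and C with 33 CG pairs, held none. The neighbouring pair also differed in base composition. The Il4ra window was 62% G and C with 25 CG pairs, the Il21r window 56% with 7, and the Il2ra window 42.7% with 3, where the median of all promoters was 52.7% with 7.

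Against LSK cells, the lymphoma as a whole had more Il2rb, Il7r and Il6st RNA, less Il4ra and slightly less Il21r, and no called change in Il2ra. Here 5 of 6 genes were called, 3 higher and 2 lower, where limma called 29% of all genes, 13.1% higher and 15.8% lower. The median difference of the 6 was 0.92, where that of all genes was 0.05. The 6 include Il2ra and Il7r, which encode sort antigens. The comparison used the mean of the 5 fractions of each replicate number, 3 values against 3 LSK arrays. Fewer cells of a type and less RNA per cell cannot be told apart in such sorted bulk samples. Tissue, the Lck-Cre transgene, irradiation and transplantation also differ between the lymphoma and LSK groups, and an age is given for LSK mice only. The effects of these traits, and of age, cannot be told apart from that of the lymphoma.

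Il4ra, the chain that binds IL-4, showed the largest change of the 6 genes. It read 5.68 to 9.86 on the 15 lymphoma arrays, against 10.82, 10.89 and 10.86 on the LSK arrays, with no overlap. Lymphoma cells averaged 7.33 and LSK cells 10.86, a log2 difference of -3.53 (SE 0.119, adjusted p = 3.77e-08). Groups without overlap were found for 44.7% of all genes in this comparison and for 5 of the 6 receptor genes.

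The fall of Il4ra was graded over the fractions. CLP arrays read 6.42, 7.16 and 6.87, DN1 arrays 9.67, 9.86 and 9.39, DN2 arrays 7.8, 8.48 and 8.08, DN3 arrays 5.68, 6.0 and 6.23, and DN4 arrays 5.91, 6.06 and 6.3. DN1 cells thus lay closest to LSK cells, and DN3 and DN4 arrays overlapped each other just above background. Against LSK the log2 difference was -1.21 (SE 0.152, adjusted p = 0.000162) in DN1 and -2.74 (SE 0.162, adjusted p = 1.9e-07) in DN2. In CLP it was -4.04 (SE 0.198, adjusted p = 2.84e-06), in DN3 -4.89 (SE 0.153, adjusted p = 3.29e-09) and in DN4 -4.77 (SE 0.131, adjusted p = 8.52e-10). Each step down the order LSK, DN1, DN2 and CLP was called. DN4 against CLP missed the threshold (log2 -0.72, adjusted p = 0.114), and DN4 and DN3 did not differ beyond their spread (log2 0.12, SE 0.212, adjusted p = 1).

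Il21r, the private chain of the IL-21 receptor, followed the same order among the fractions, but LSK cells took another place in it. CLP arrays read 6.32, 6.17 and 6.33, DN1 arrays 8.5, 8.55 and 8.51, DN2 arrays 7.34, 7.66 and 7.22, DN3 arrays 5.72, 5.35 and 5.65, DN4 arrays 5.83, 5.59 and 5.42, and LSK arrays 7.16, 6.92 and 7.31. The gene was above LSK in DN1 (log2 1.39, SE 0.144, adjusted p = 3.93e-05), was not called in DN2 (0.28, SE 0.151, adjusted p = 0.223) and was below LSK in CLP (-0.86, adjusted p = 0.00541), DN3 (-1.56, SE 0.152, adjusted p = 1.74e-05) and DN4 (-1.52, SE 0.149, adjusted p = 1.41e-05). Only 1 of 3 DN3 arrays and 2 of 3 DN4 arrays exceeded their own background percentile, so these differences are no exact folds. The call for the lymphoma as a whole (log2 -0.45, adjusted p = 0.0162) was lost without DN3 (-0.18, adjusted p = 0.314), without DN4 (-0.19, adjusted p = 0.281), without lymphoma replicate 2 (adjusted p = 0.0593) or without replicate 3 (adjusted p = 0.0646). Without DN1 it was -0.91 (adjusted p = 0.000281).

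**Figure D1:**
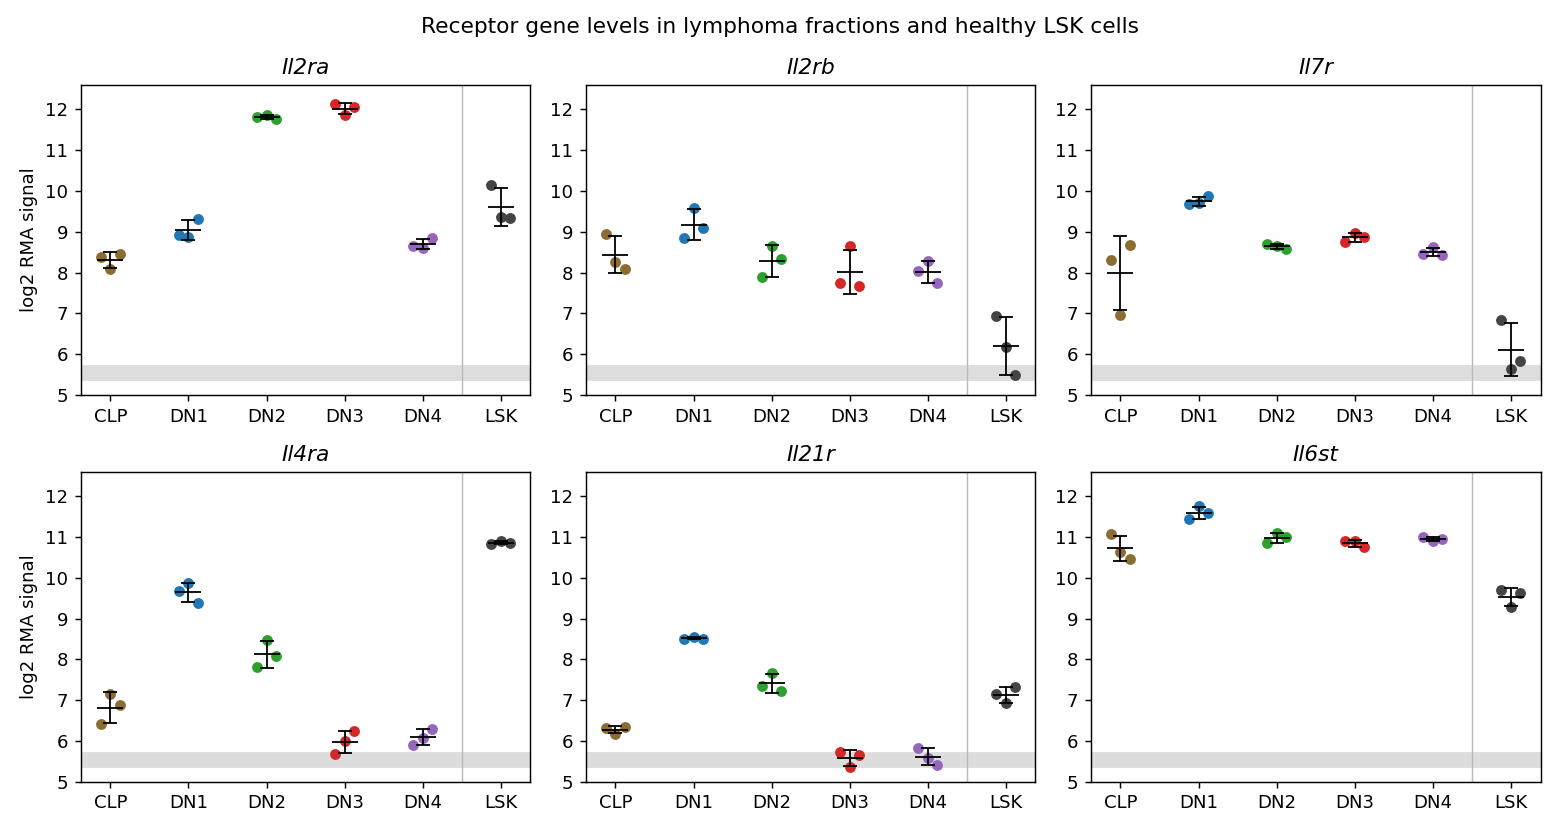
Log2 RMA signal of 6 receptor genes on each array (points), with the mean and SD of the 3 arrays of a group (bars), for the 5 lymphoma fractions and healthy LSK cells to the right of the line. The grey band is the background range of 5.36 to 5.71. Il4ra and Il21r step down over DN1, DN2, CLP and DN3 with DN4, while Il2rb, Il7r and Il6st lie above LSK in every fraction.

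Both genes also differed between fractions. DN3 lay below DN1 by a log2 difference of -3.67 for Il4ra (SE 0.212, adjusted p = 3.32e-09) and -2.94 for Il21r (SE 0.149, adjusted p = 7.28e-10). DN2 lay below DN1 by -1.52 for Il4ra (adjusted p = 0.000799) and -1.11 for Il21r (adjusted p = 0.000625), and DN3 lay below DN2 by -2.15 (adjusted p = 5.49e-06) and -1.84 (adjusted p = 5.81e-07). Il21r was also called lower in DN3 than in CLP (-0.70, adjusted p = 0.0329) and in DN4 than in CLP (-0.66, adjusted p = 0.0415), but the first was lost when any 1 DN3 array was left out (adjusted p = 0.0858 to 0.116) and the second when any 1 DN4 array was (adjusted p = 0.0628 to 0.181). The first was also lost without DN2 array 1 or DN4 array 2 (adjusted p = 0.0504 and 0.0525). The second was also lost without CLP array 2 or 3, DN1 array 1 or 2, DN2 array 1 or 3, or DN3 array 1 or 3 (adjusted p = 0.0525 to 0.0686). For Il4ra, DN3 and DN4 passed against CLP without CLP array 1 (adjusted p = 0.016 and 0.0198). In all, 9 of 10 pairs of fractions were called for Il21r and 7 of 10 for Il4ra. Of all genes, limma called 7.78% for DN1 against CLP, 2.87% for DN2 against CLP, 1.1% for DN3 against CLP and 1.07% for DN4 against CLP. It called 1.35% for DN2 against DN1, 6.7% for DN3 against DN1, 5.61% for DN4 against DN1, 2.45% for DN3 against DN2, 2.65% for DN4 against DN2 and 0.00451% for DN4 against DN3.

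Over the 15 lymphoma arrays, which fall into 5 fractions, Il4ra and Il21r ran together with Pearson's r of 0.976. The LSK arrays do not share this relation, with Il4ra at its highest and Il21r near its DN2 level. The next gene before Il4ra on chromosome 7, Nsmce1, a subunit of the SMC5/6 complex, averaged 8.29 (CLP), 8.99 (DN1), 8.95 (DN2), 8.04 (DN3) and 7.78 (DN4), and also differed among fractions (adjusted p = 0.0089). Gtf3c1, the next gene after Il21r, averaged 8.73 to 8.88 over the fractions (adjusted p = 0.976). These neighbours were named after their values were seen.

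**Figure D2:**
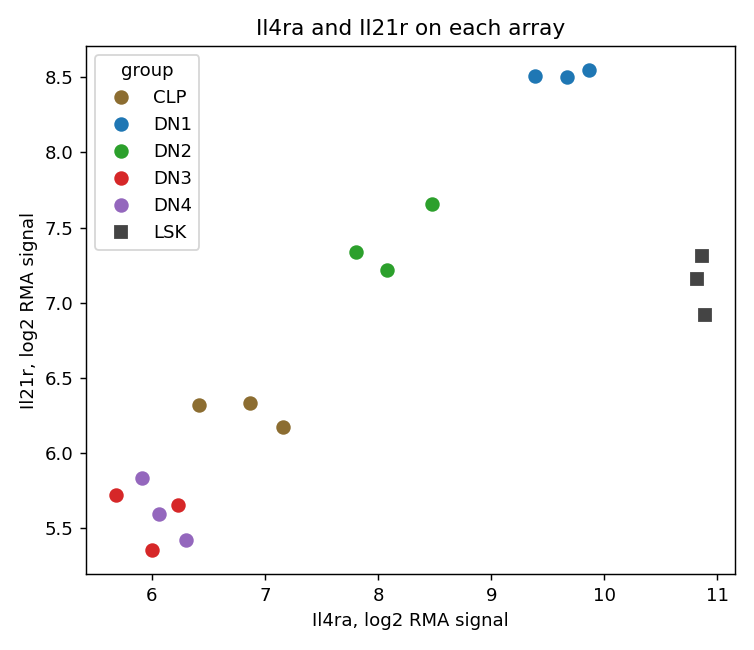
Il21r against Il4ra, both as log2 RMA signal, with 1 point per array, circles for lymphoma fractions and squares for LSK cells. The lymphoma arrays lie along 1 line from DN3 and DN4 through CLP and DN2 to DN1 (r = 0.976, n = 15 arrays), and the LSK arrays lie off it at Il4ra of 10.82 to 10.89.

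Il2rb, the signal chain shared by the IL-2 and IL-15 receptors, was higher than LSK in each of the 5 fractions. CLP arrays read 8.95, 8.26 and 8.09, DN1 arrays 8.84, 9.59 and 9.09, DN2 arrays 7.88, 8.65 and 8.32, DN3 arrays 7.74, 8.64 and 7.68, DN4 arrays 8.03, 8.28 and 7.75, and LSK arrays 6.94, 6.17 and 5.5. The lowest lymphoma array was thus above the highest LSK array, although the LSK arrays were spread over more than 1 unit and only 2 of 3 exceeded background. The lymphoma averaged 8.39 and LSK cells 6.20, a log2 difference of 2.19 (SE 0.303, adjusted p = 0.000453). The rise ran from 1.82 in DN3 (adjusted p = 0.00205) and DN4 (adjusted p = 0.00063) to 2.97 in DN1 (SE 0.315, adjusted p = 4.59e-05). Among fractions the F test missed the threshold (span 1.15, adjusted p = 0.0565), and alternatives in the closing section fall on either side of it. DN3 and DN4 each lay below DN1 by -1.15 (SE 0.282, adjusted p = 0.0166 and 0.0187), calls that were lost without DN1 array 2 (adjusted p = 0.0919 and 0.108). The DN3 call was also lost without DN3 array 1 or 3 (adjusted p = 0.095 and 0.0961), and the DN4 call without DN4 array 1 or 3 (adjusted p = 0.0633 and 0.106). DN1 against CLP was not called (0.74, adjusted p = 0.134) but passed without CLP array 1 (1.0, adjusted p = 0.0295). DN3 array 2 was nearly 1 unit above the other DN3 arrays.

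Markers of natural killer cells, which carry Il2rb, were read beside it, and their part in its level was not tested. None of the 6 was called higher in the lymphoma than in LSK and 2 were called lower, Klrd1 (-2.0, adjusted p = 7.47e-07) and Nkg7 (-1.71, adjusted p = 2.79e-06). Of all genes, 13.1% were called higher and 15.8% lower there. The mean of the 6 NK markers was 5.14 to 5.35 on the CLP arrays, 5.18 to 5.38 on DN1, 4.98 to 5.04 on DN2, 5.15 to 5.29 on DN3, 5.06 to 5.24 on DN4 and 5.71 to 5.83 on the LSK arrays, with 2 of 6 above background in each group. Ncr1, Klrb1c and Eomes averaged at most 5.06 in any group. The 2 above background in the fractions were Nkg7, with means of 6.8 (DN2) to 8.0 (CLP), and Prf1, with 5.8 (DN2) to 6.06 (DN4). Both exceeded background on 18 of 18 arrays, and Nkg7 differed among the fractions (F test adjusted p = 0.000449).

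Il6st, which encodes gp130, was higher in every fraction. CLP arrays read 11.07, 10.62 and 10.47, DN1 arrays 11.44, 11.75 and 11.58, DN2 arrays 10.85, 11.09 and 11.0, DN3 arrays 10.9, 10.89 and 10.75, DN4 arrays 10.99, 10.91 and 10.96, and LSK arrays 9.69, 9.28 and 9.63. Every lymphoma array was above every LSK array. The lymphoma averaged 11.02 and LSK cells 9.54, a log2 difference of 1.48 (SE 0.123, adjusted p = 1.37e-05), and the rise ran from 1.18 in CLP (SE 0.2, adjusted p = 0.00347) to 2.05 in DN1 (SE 0.159, adjusted p = 3.95e-06). DN1 lay above CLP (0.87, adjusted p = 0.00111), DN3 lay below DN1 (-0.74, adjusted p = 0.00379) and so did DN4 (-0.63, adjusted p = 0.014), a call lost without DN1 array 2 (adjusted p = 0.0766) or DN4 array 2 (adjusted p = 0.0647). DN2 against DN1 missed the threshold (-0.61, SE 0.149, adjusted p = 0.0554) and was called without the CLP arrays (adjusted p = 0.0104). The other 4 fractions were not called apart from each other. The F test called Il6st (span 0.87, adjusted p = 0.00613), and no longer without DN1 array 2 (0.79, adjusted p = 0.0547).

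Il7r, which encodes the private chain of the IL-7 receptor, was higher than LSK in every fraction and highest in DN1. CLP arrays read 8.31, 6.97 and 8.68, DN1 arrays 9.67, 9.71 and 9.88, DN2 arrays 8.7, 8.66 and 8.57, DN3 arrays 8.75, 8.97 and 8.86, DN4 arrays 8.45, 8.63 and 8.44, and LSK arrays 6.84, 5.64 and 5.82. CLP array 2 lay beside the highest LSK array, and CLP had the lowest mean of the fractions. Against LSK the log2 difference was 3.65 in DN1 (SE 0.265, adjusted p = 2.5e-06), 2.41 to 2.76 in DN2, DN3 and DN4, and 1.89 in CLP (SE 0.452, adjusted p = 0.0202). The CLP call was lost without LSK array 2 (1.66, adjusted p = 0.0867), LSK array 3 (1.74, adjusted p = 0.0837) or CLP array 3 (1.54, adjusted p = 0.0567). DN1 lay above CLP by 1.76 (adjusted p = 0.000554) and DN4 lay below DN1 by -1.24 (adjusted p = 0.0102), and no other pair was called. Without CLP array 3, DN2 and DN3 were also called above CLP (adjusted p = 0.0351 and 0.0185). DN2 lay below DN1 by -1.11 (adjusted p = 0.0664) and DN3 by -0.89 (adjusted p = 0.0739), and both passed without the 3 CLP arrays (adjusted p = 5.41e-05 and 6.89e-05), which carry most of the spread.

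Il2ra, which encodes the CD25 chain of the high-affinity IL-2 receptor, was high in DN2 and DN3 and low in the other fractions. CD25 was stained for the sort, so this pattern checks the sort and is no finding. CLP arrays read 8.38, 8.09 and 8.46, DN1 arrays 8.92, 8.88 and 9.32, DN2 arrays 11.81, 11.86 and 11.76, DN3 arrays 12.14, 11.87 and 12.05, DN4 arrays 8.66, 8.61 and 8.85, and LSK arrays 10.15, 9.36 and 9.33. LSK cells lay between the high and the low fractions, and LSK array 1 stood apart from the other two. Against LSK, Il2ra was higher in DN2 (log2 2.19, SE 0.196, adjusted p = 5.92e-06) and DN3 (2.40, SE 0.207, adjusted p = 6.18e-06) and lower in CLP (-1.31, SE 0.238, adjusted p = 0.00518) and DN4 (-0.91, SE 0.202, adjusted p = 0.00585). DN1 missed the threshold (-0.58, SE 0.225, adjusted p = 0.106). Its value for the lymphoma as a whole (0.36, adjusted p = 0.219) averaged these opposite shifts. It was 0.63 without LSK array 1 (adjusted p = 0.00321), 0.78 without CLP (adjusted p = 0.015), 0.60 without DN1 (adjusted p = 0.0489) and 0.68 without DN4 (adjusted p = 0.0301).

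Il2ra also set DN4 and DN3 apart, which again checks the sort on CD25 and is no finding. It lay lower in DN4 than in DN3 by a log2 difference of -3.31 (SE 0.147, adjusted p = 1.48e-09), and it was the 1 gene of 22180 that limma called between them. The other 5 receptor genes differed there by -0.35 (Il7r) to 0.12 (Il4ra), each with adjusted p = 1. Even in the fractions low for CD25 no Il2ra array was under 8.09, above the background range.

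**Figure D3:**
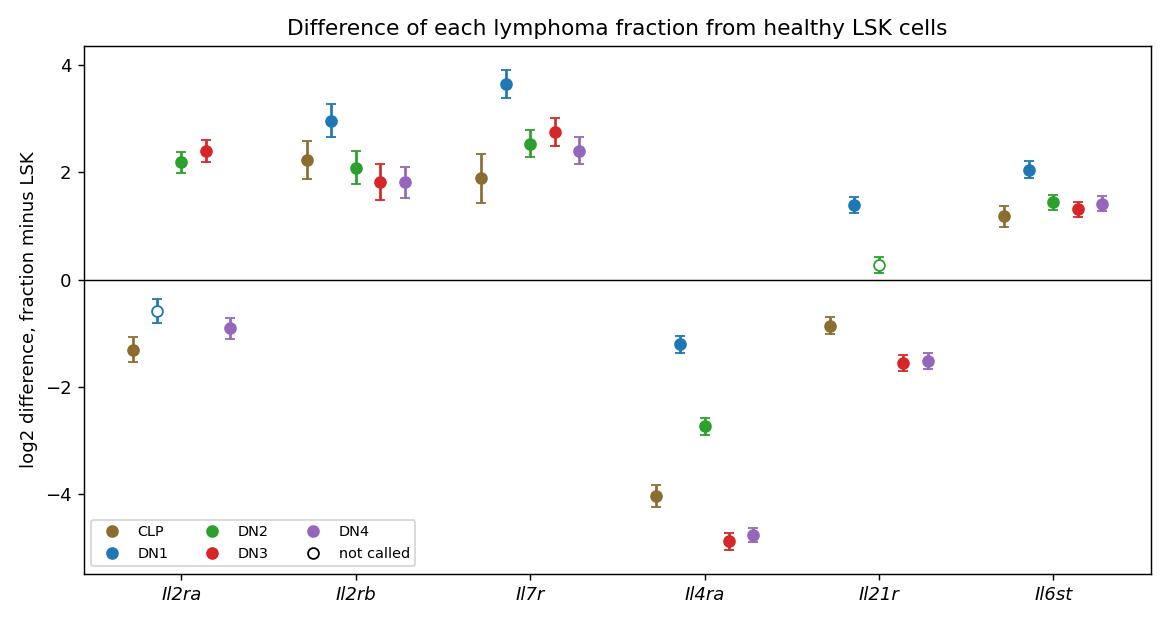
Log2 difference of each lymphoma fraction from LSK cells for 6 receptor genes, with the limma SE as bars (n = 3 arrays against 3). Open points missed an adjusted p of 0.05. Il2ra and Il21r lie on both sides of 0, Il4ra lies below it in each fraction (-1.21 in DN1 to -4.89 in DN3), and Il2rb, Il7r and Il6st lie above it.

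By fraction, limma called all 6 genes against LSK in CLP (3 higher, 3 lower), where it called 17.7% of all genes (6.54% higher, 11.2% lower). In DN1 it called 5 (4 higher, 1 lower), with 19.7% of all genes (7.45% higher, 12.3% lower), and in DN2 also 5 (4 higher, 1 lower), with 25.4% (11.4% higher, 14% lower). In DN3 it called all 6 (4 higher, 2 lower), with 24.5% (11.4% higher, 13.1% lower), and in DN4 all 6 (3 higher, 3 lower), with 26.6% (11.8% higher, 14.9% lower). The arrays of the fraction and of LSK did not overlap for 6 genes in CLP (36.7% of all genes). For DN1 that held for 6 genes (35% of all), for DN2 for 5 (39.5%), for DN3 for 6 (39%) and for DN4 for 6 (41.9%). These comparisons share the LSK arrays. The 6 genes include Il2ra and Il7r, which encode sort antigens, so the sort bears on these counts. Among fractions the F test called 5 of 6 genes, all but Il2rb, where it called 7.88% of all genes. Of 60 tests of 1 gene in 1 pair of fractions, 30 were called, 18 of them among the 24 that involve DN1. Il2ra and Il7r, which encode sort antigens, gave 7 and 2 of the 30 calls, and 3 and 2 of the 18 with DN1. Over the pairs, limma called 0.00451% (DN4 against DN3) to 7.78% (DN1 against CLP) of all genes.

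Other chains of the same receptor families did not move in 1 direction against LSK. Of 17 measured, 6 rose and 8 fell, with a median difference of 0.01, where limma called 13.1% of all genes higher and 15.8% lower. Il5ra, counted as a rise, was above background on 0 of 18 arrays, so its call is no measured rise. Lifr, Osmr, Il13ra1 and Csf2rb, counted as falls, were above background on only 2, 3, 3 and 6 of 18 arrays, so their differences are no exact folds. These genes were named after their values were seen. Il12rb1, the common chain of the IL-12 and IL-23 receptors, rose (log2 2.94, SE 0.134, adjusted p = 2.35e-07) and lay at 8.95 to 9.16 in all fractions and 6.12 in LSK. Il12rb2, the second chain of the IL-12 receptor, rose by 2.55 (adjusted p = 1.23e-06) and Il9r, the private chain for IL-9, by 2.48 (adjusted p = 1.52e-06). Il6ra, the chain that presents IL-6 to gp130, fell (-3.02, SE 0.11, adjusted p = 5.47e-08), with means of 5.75 (DN4) to 7.10 (DN1) in the fractions and 9.17 in LSK, where Il6st rose. Il10rb, shared by the IL-10 and IL-22 receptors, fell by -2.37 (adjusted p = 3.16e-07). In CLP only 1 of 3 arrays for Il6ra and 2 of 3 for Il10rb exceeded background, so their falls there are no exact folds.

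Among the fractions 6 of these 17 chains differed by the F test, in opposite patterns, where the test called 7.88% of all genes. Il10rb was highest in DN1, as Il4ra was, with means of 5.73 (CLP), 8.06 (DN1), 7.19 (DN2), 6.1 (DN3) and 6.11 (DN4), and lowest in CLP (adjusted p = 1.18e-06). Il15ra, the private chain for IL-15 and the next gene after Il2ra on chromosome 2, was lowest in DN1 (adjusted p = 1.51e-06). Its CLP arrays read 8.61, 8.43 and 8.72, DN1 arrays 7.31, 7.09 and 6.83, DN2 arrays 7.64, 7.57 and 7.5, DN3 arrays 7.91, 7.82 and 8.04, DN4 arrays 8.77, 8.61 and 8.54, and LSK arrays 7.65, 7.7 and 7.34. Il15ra was thus lowest in the fraction where Il4ra and Il21r were highest. Its rise against LSK for the lymphoma as a whole (0.39, adjusted p = 0.0327) was lost in several alternatives. These were without CLP (adjusted p = 0.183), without DN4 (0.21), without LSK array 3 (0.0646) and without any 1 lymphoma replicate number (0.0741 to 0.131). Il9r averaged 8.55 (CLP), 7.5 (DN1), 7.61 (DN2), 8.66 (DN3) and 8.76 (DN4) (adjusted p = 4.19e-06). Il12rb2 averaged 9.06 (CLP), 7.49 (DN1), 8.3 (DN2), 9.4 (DN3) and 9.63 (DN4) (adjusted p = 6.29e-07).

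**Figure D4:**
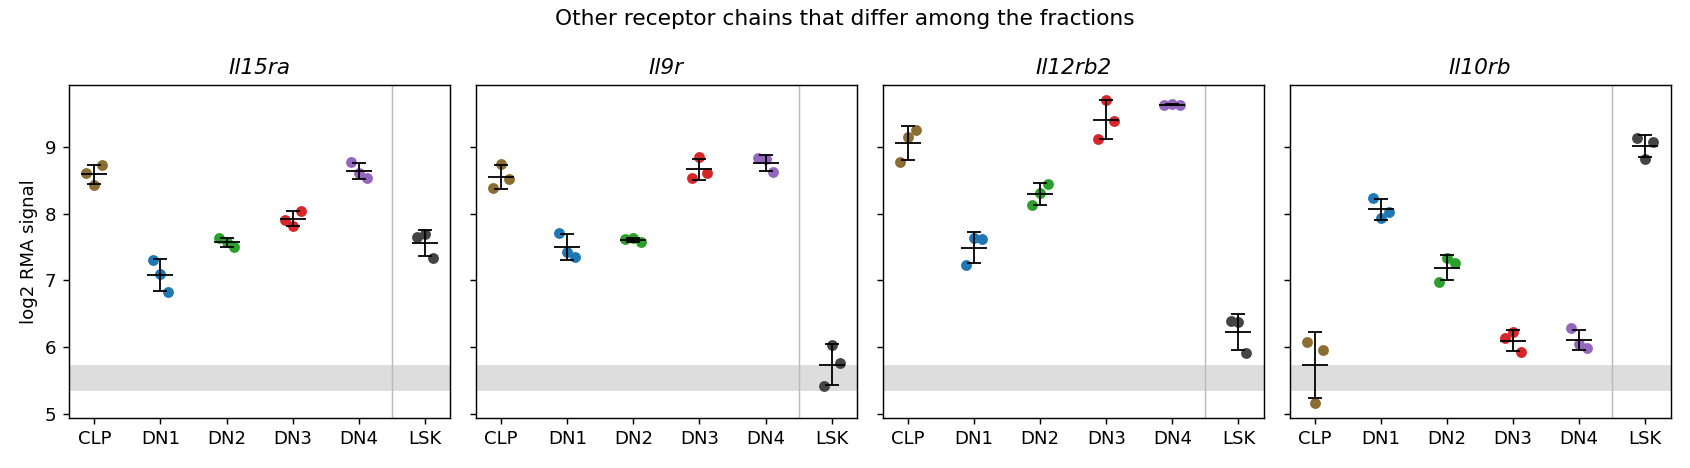
Log2 RMA signal of 4 other receptor chains on each array (points), with mean and SD of the 3 arrays of a group (bars) and the background range in grey. Il15ra, Il9r and Il12rb2 are lowest in DN1 among the lymphoma fractions, and Il10rb is highest there (8.06).

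Of 13 measured ligand genes, 5 fell against LSK and 0 rose in the mean of all fractions. In that comparison limma called 15.8% of all genes lower and 13.1% higher. Il2, Il4, Il6, Il7, Il9 and Il21 were below background on all 18 arrays, so the calls for Il6, Il7 and Il4 are no measured falls. Il15 was below background on all 15 lymphoma arrays (3.77 to 4.97), against 6.52 to 7.46 on the LSK arrays, so its difference of -2.80 (adjusted p = 5.56e-06) is no exact fold. Il11, the other counted fall (-0.58, adjusted p = 0.022), was above background on only 3 of 18 arrays, so its difference is no exact fold either. It was named after its value was seen. Osm, Lif and Il27 were above background on all 18 arrays and were not called.

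Of 9 measured JAK and STAT genes, 2 rose and 3 fell against LSK, where 13.1% of all genes were called higher and 15.8% lower. Jak1, a kinase bound by most of these receptors, was just past the threshold (0.3, adjusted p = 0.0483), was named after its value was seen and was not run under the alternatives. Stat4, the transducer of IL-12, rose by 0.78 (adjusted p = 0.00239), and Stat2 fell by 0.95 on the log2 scale (adjusted p = 0.000837), Stat3 by 0.34 (adjusted p = 0.0294) and Jak2 by 0.35 (adjusted p = 0.0344). The Stat3 call was lost without LSK array 2, without DN3 or without any 1 lymphoma replicate number (adjusted p = 0.0579 to 0.117). The Jak2 call was lost with the replicate block, without LSK array 1 or 3, without CLP or DN3 or without any 1 lymphoma replicate number (adjusted p = 0.0524 to 0.116). Among fractions Stat5a, a transducer of IL-2 and IL-7, averaged 7.64 (CLP), 8.42 (DN1), 8.23 (DN2), 7.92 (DN3) and 7.91 (DN4), against 7.91 in LSK (F test adjusted p = 0.00183). Jak2 (adjusted p = 0.0197) and Stat4 (adjusted p = 0.0418) also passed the F test, each with its highest mean in DN1. The Jak2 call was lost without any 1 DN1 array (adjusted p = 0.052 to 0.108). The Stat4 call was lost without any 1 DN1 or DN4 array, DN2 array 2 or 3, or DN3 array 1 or 3 (adjusted p = 0.0615 to 0.123). Jak3 was not analysed here.

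Feedback and target genes of these receptors fell in 10 of 20 cases against LSK and rose in 3, with a median difference of -0.33. Of all genes, 15.8% were called lower and 13.1% higher, with a median of 0.05. Cish, a feedback inhibitor induced by STAT5, fell by 1.80 on the log2 scale (SE 0.16, adjusted p = 2.24e-05), with lymphoma arrays at 5.54 to 6.19 and LSK arrays at 7.40 to 8.08. With the mean of its probe sets in place of the brightest, the difference was -3.50 (adjusted p = 7.42e-07). Ccnd2, the cyclin D2 gene, fell by 3.77 (SE 0.107, adjusted p = 1.29e-08), and Bcl2l1, a survival gene, by 1.42 (adjusted p = 2.88e-06). Sh2b3, which restrains JAK signalling, fell by 0.82 (adjusted p = 0.000178). The 3 that rose were Id2 (1.09), Gfi1 (0.70) and Socs3 (0.40), named after their values were seen and not run under the alternatives.

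Among fractions 4 of the 20 differed, namely Ccnd2, Socs1, Pim1 and Bcl6, where the F test called 7.88% of all genes. Socs1, which shuts off JAK kinases, was highest in DN1 and lowest in DN4 (adjusted p = 2.37e-06). Its CLP arrays read 7.64, 7.97 and 7.79, DN1 arrays 8.64, 8.85 and 8.73, DN2 arrays 8.32, 8.17 and 8.23, DN3 arrays 7.32, 7.35 and 7.36, DN4 arrays 6.93, 7.4 and 7.28, and LSK arrays 7.33, 7.14 and 8.09. Pim1, a STAT-induced kinase, averaged 7.14 (CLP), 8.12 (DN1), 7.75 (DN2), 7.24 (DN3) and 7.07 (DN4) (adjusted p = 5.55e-05). With the mean of its probe sets the Pim1 call was lost (span 0.41, adjusted p = 0.345). Bcl6, a repressor controlled by STATs, averaged 6.51 in DN3 and 7.57 in DN1 (adjusted p = 0.00264). Cish had a span of 0.19 among the fractions (adjusted p = 0.9). Ccnd2 averaged 7.88 (CLP), 5.93 (DN1), 5.77 (DN2), 8.58 (DN3) and 7.81 (DN4) (adjusted p = 1.32e-09).

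**Figure D5:**
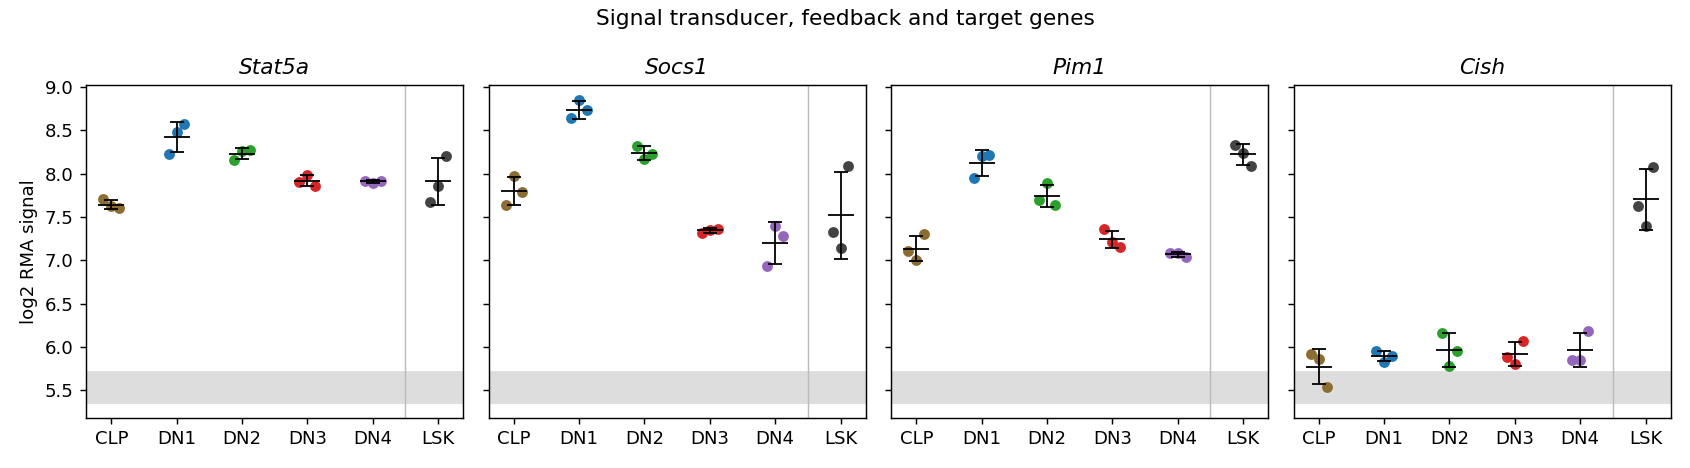
Log2 RMA signal of a transducer (Stat5a), 2 further genes called among fractions (Socs1 and Pim1, the call of Pim1 being lost with the mean of its probe sets) and Cish on each array (points), with mean and SD of the 3 arrays of a group (bars) and the background range in grey. Stat5a, Socs1 and Pim1 have their highest fraction mean in DN1 (8.42, 8.74 and 8.12), and Cish is near background in each fraction and above 7 in LSK.

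Genes of regulatory T cells, which carry CD25, were read beside Il2ra. Of 6 measured, 4 rose against LSK, namely Ikzf2 (1.20, adjusted p = 0.000289), Tnfrsf18 (0.59, adjusted p = 0.00266), Tnfrsf4 (0.42, adjusted p = 0.013) and Nrp1 (1.42, adjusted p = 0.0393, LSK arrays at 5.77 to 8.01). In this comparison 13.1% of all genes were called higher. The Nrp1 value was 0.77 without LSK array 3 (adjusted p = 0.00512), and its call was lost without LSK array 2 (adjusted p = 0.0578), with the trended and robust prior (adjusted p = 0.118) and without any 1 lymphoma replicate number (adjusted p = 0.0943 to 0.104). The Tnfrsf4 call was lost without lymphoma replicate 1 (0.36, adjusted p = 0.073). Foxp3, the factor that defines these cells, was below background in all 6 groups. Ikzf2 averaged 7.99 (CLP), 7.87 (DN1), 7.33 (DN2), 8.45 (DN3) and 8.68 (DN4), against 6.86 in LSK. The mean of 5 macrophage and monocyte markers was 5.01 to 5.19 on the DN1 arrays, 4.79 to 5.04 on DN4 and 6.49 to 6.65 in LSK, with 0 of 5 above background in every fraction and 3 of 5 in LSK. Granulocyte markers were above background in 1 or 2 of 6 cases in the fractions and 5 of 6 in LSK, where the part of such cells in the LSK level of Il4ra was not tested. The exception in LSK was Ly6g, with a mean of 4.51 there and above background on 0 of 18 arrays. The highest in LSK were Elane (10.67), Mpo (10.41) and Ctsg (8.95).

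The genes most like each receptor over the 15 lymphoma arrays, by Pearson's r, are given as a description, since the arrays share 5 fractions. Il4ra ran most like Pcsk1 (r = 0.986), Map3k8 (0.985) and Smoc2 (0.981), and Il21r most like Igfbp4 (0.981), Sgk1 (0.98) and Moxd1 (0.977). Pcsk1, a prohormone convertase, averaged 5.87 (CLP), 10.48 (DN1), 8.58 (DN2), 4.46 (DN3) and 4.5 (DN4), and Map3k8, a kinase of inflammatory signalling, 6.37 in DN3 and 9.18 in DN1. Il7r ran most like Rel (0.936), an NF-κB subunit, Kmt5b (0.913) and Mllt3 (0.905). Il6st ran most like Jak2 (0.928), a kinase that can bind gp130, Scml4 (0.926) and Abcc5 (0.924). For Il2rb the genes were Kcnmb1 (0.892), Pigt (0.886) and Vsir (0.869). Il2ra had the weakest match, with Rasl11b (0.869), Rcc1 (0.869) and Lin54 (0.83).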

How the data were processed

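Per the labels, total RNA of sorted cells (RNeasy Micro kit) was amplified with the WT Pico kit for Affymetrix arrays. The authors deposited 1 log2 signal per probe set and array, and the submitters' processing notes name oligo and RMA, whose versions are not given in the sources used here. The log2 values were used as deposited. Of 41345 probe sets, 23521 carry 1 gene symbol and were kept, 1814 carry several and 16010 none. The brightest probe set by the mean of 18 arrays stood for each of 22180 genes. The files name no genome build.

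Tests used limma 3.58.1 in R 4.3.3 (lmFit, then eBayes). Tests were two-sided, p was adjusted over all genes by Benjamini-Hochberg, and an adjusted p under 0.05 is called. SE is limma's. All p in the text are adjusted. Comparisons with LSK used 3 values a side, and those among fractions 1 model of 15 arrays. The code was tested on simulated data. The main fits have no replicate block.

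The receptor genes, lists and tests were chosen with earlier results of these data known. Named are all measured receptor genes, up to 4 genes of each list with the smallest p against LSK and by the F test, and the 3 genes most like each receptor by Pearson's r among genes above the median level. The number of arrays limits precision.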

Additional observations from a re-analysis of the deposited data

Results flagged for a closer look

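Of the 6 receptor genes, 5 differed between the lymphoma fractions by limma's F test, which is also the test that their differences from the shared LSK arrays are unequal. The span between the highest and the lowest fraction mean was 3.71 for Il2ra (DN3 highest, CLP lowest), 3.67 for Il4ra (DN1 highest, DN3 lowest) and 2.94 for Il21r (DN1 highest, DN3 lowest). It was 1.76 for Il7r (DN1 highest, CLP lowest) and 0.87 for Il6st (DN1 highest, CLP lowest). The CD25 and IL7Rα proteins were part of the sort, so the spans of Il2ra and Il7r check the sort and are no finding. The LSK comparisons of Il2ra and Il21r took opposite signs in different fractions. For Il2ra, the sort on CD25 bears on these signs.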

How the results depend on the processing

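The alternatives were a filter on low values, quantile normalization, the mean of a gene's probe sets, an eBayes prior that is trended and robust, a replicate block, a single model of all 18 arrays, the fractions or CLP arrays left out, and each array left out. Of 462 alternative values for the receptor genes against LSK, 446 kept direction and side of the threshold, 9 lost the call, 5 gained it and 2 reversed. The 2 are the uncalled Il2ra value for the lymphoma as a whole, -0.10 without DN2 and -0.15 without DN3, against 0.36. Outside the receptor genes, the uncalled Osm (0.065 with quantile normalization and 0.024 without DN1) and Stat5a (-0.007 to 0.259 when 1 replicate is left out, the lowest without LSK array 1) also changed sign. Leaving out 1 LSK array, or 1 lymphoma number in all 5 fractions, gave 4 to 6 receptor genes called for the lymphoma as a whole, the 4 only without lymphoma replicate 2 or 3. Leaving out 1 array gave 5 to 6 for CLP, 5 for DN1, 5 for DN2, 6 for DN3, 6 for DN4, 4 to 6 by the F test and 26 to 35 of the pair calls. With the replicate block, Il2rb passed the F test (adjusted p = 0.0214), and Il4ra was called in DN3 against CLP (adjusted p = 0.0244, and 0.044 with quantile normalization) and in DN4 against CLP (adjusted p = 0.0484). Il2rb also passed the F test with the filter (adjusted p = 0.0407), with quantile normalization (0.0477), without the CLP arrays (0.0155), without CLP array 1 (0.0195) or 3 (0.0395) and without DN3 array 2 (0.014). Il21r for the lymphoma as a whole was not called with quantile normalization (-0.35, adjusted p = 0.0543) and without CLP (-0.35, adjusted p = 0.0504), and Il2ra in DN1 passed with all 18 arrays in 1 model (adjusted p = 0.0319). Over all genes, CLP against LSK called 3928 genes, 6140 with all 18 arrays in 1 model and 2559 without LSK array 1, and DN4 against CLP called 237, or 360 with the block. Deviations from the group means correlated above 0.1 in 21 of 30 pairs of same-numbered arrays (r of -0.193 to 0.346), against 6 of 60 other pairs, and 11 of 15 arrays matched best with their own number. This likeness of same-numbered arrays comes from the data, not the labels, and not every pair shows it, so the block was kept as an alternative. Its cause was not tested. Deviations cancel within a group, so the same-numbered and the other pairs are not independent.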
